A study of Homo sapiens with 12 samples.

Results

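Genes for reabsorptive and secretory transport and for the identity of the kidney proximal tubule were followed in HK-2 cells. The set holds 36 genes chosen by their known role: genes of protein endocytosis, transporters, brush border enzymes and scaffold proteins, and transcription factors. Of these, 34 are among the 19775 genes that a probe set of the array names alone, while AMN and HNF4A were not analysed here. Each gene was read from the probe set with the highest mean over the 12 arrays. A gene under a log2 value of 4 on all arrays was taken as not detected, and a gene at 4 or more on at least 3 arrays was tested. By these rules 10 genes were tested, 3 were detected on fewer than 3 arrays, and 21 were not detected.

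RNA was measured in HK-2 cells, which derive from human proximal tubular epithelium and were immortalized, after exposure to a compound that the labels call only Fk. Its 4 groups were Fk at 12 h, Fk at 48 h, control vehicle at 12 h and control vehicle at 48 h, each with 3 arrays that the labels call biological replicates. All cultures were grown in a hormone-supplemented medium with 5 mM glucose, EGF, hydrocortisone and insulin and were treated near confluence, 24 h after seeding. The dose was not given in the sources used here, all groups come from 1 line, and whether the replicates were separate passages is not stated, so p-values measure the spread between these cultures. The values are log2 values after GCRMA, which adjusts background by probe sequence and normalizes quantiles between arrays. Values of different probe sets do not share a scale of RNA amount and are not set against each other.

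The proximal tubule takes back most of the filtered sodium, bicarbonate, phosphate, glucose, amino acids and small proteins, and it secretes organic ions and drugs into the urine. Its luminal brush border carries microvilli held to actin by ezrin, with peptidases on the surface and the receptors megalin and cubilin in the pits between the microvilli. The transcription factor HNF4A acts on many of its transporter genes, and PAX2 and PAX8 act in the formation of the nephron.

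Array quality touches several of the results. Correlations between arrays of a group were 0.992 to 0.994 in controls at 12 h, 0.966 to 0.986 in controls at 48 h and 0.961 to 0.984 in Fk cultures at 48 h. In Fk cultures at 12 h, replicates 1 and 2 correlated at 0.994, but replicate 3 correlated with them at only 0.942 to 0.946. On this array 1660 genes lay over 1 log2 unit from the mean of the other two, against 72 between replicates 1 and 2. The 3 such genes among the tested members were SLC4A4, SLC22A5 and SLC17A3, and for these the results are given with and without it.

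Most of the transporters that define the proximal tubule were not detected in these cells, in either treatment or time. Of the 34 genes with a probe set, 13 were at 4 or more on some array (38.2%), beside 11151 of all 19775 genes (56.4%). Among the 21 transporters, 15 were not detected, 5 were tested and SLC7A8 reached 4 on 2 arrays. The 21 genes not detected lay between 1.79 and 3.80 on every array, and none of their 45 probe sets went higher than 3.80. A value at this level is close to the background of the method and does not show that a transcript is absent.

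**Figure D1:**
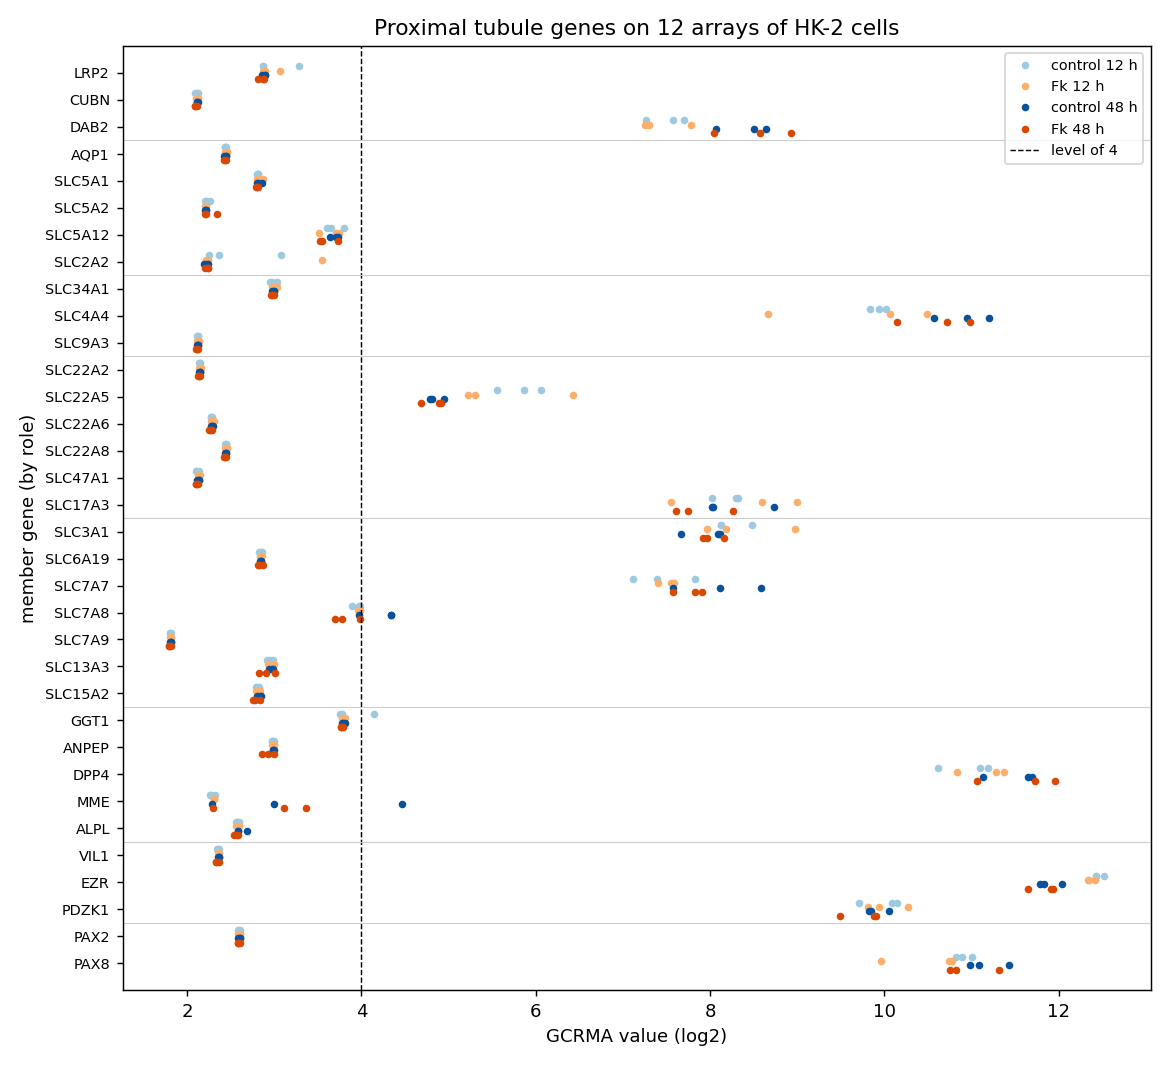
Log2 values after GCRMA (horizontal axis) of the 34 members with a probe set (vertical axis, grouped by role), one point per array for 3 arrays in each of 4 groups. The dashed line marks 4: 21 members lie left of it on all 12 arrays, while the 10 tested members lie right of it on all 12.

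The genes not detected covered every role. In endocytosis they were LRP2 (megalin, highest value 3.28) and CUBN (cubilin, highest value 2.12), the receptors for filtered proteins. All 5 water and sugar genes were among them: the water channel AQP1 (2.42 to 2.46), the sodium-glucose cotransporters SLC5A1 (2.79 to 2.87) and SLC5A2 (2.20 to 2.34), the sodium-lactate cotransporter SLC5A12 (3.51 to 3.80) and the glucose exit transporter SLC2A2 (2.20 to 3.54). The phosphate cotransporter SLC34A1 stayed between 2.95 and 3.03 and the sodium-proton exchanger SLC9A3 between 2.11 and 2.13. The organic ion transporters SLC22A2, SLC22A6 and SLC22A8 and the efflux transporter SLC47A1 lay between 2.10 and 2.46. The amino acid transporters SLC6A19 and SLC7A9, the dicarboxylate transporter SLC13A3 and the peptide transporter SLC15A2 lay between 1.79 and 3.00. The peptidase ANPEP and the phosphatase ALPL ranged from 2.54 to 3.00, the microvillar actin bundler VIL1 from 2.32 to 2.37, and PAX2 from 2.58 to 2.61. SLC5A12, SLC2A2 and LRP2 came nearest to the level of 4 from below.

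Just above that level were 3 genes that reached it on 1 or 2 arrays and were not tested. SLC7A8, a neutral amino acid exchanger of the basolateral membrane, was at 3.97, 4.33 and 4.34 in the controls at 48 h and at 3.77, 3.69 and 3.98 in the Fk cultures at 48 h, where only the 2 highest control arrays passed 4. GGT1, a brush border enzyme of glutathione breakdown, passed 4 on a single array, control replicate 2 at 12 h (4.14), and lay between 3.75 and 3.81 on all the others. MME (neprilysin), a brush border peptidase, lay between 2.27 and 2.31 on all 6 arrays at 12 h. At 48 h MME was at 2.29, 4.47 and 3.00 in controls and at 2.30, 3.36 and 3.11 with Fk, so that replicates 2 and 3 were higher than replicate 1 in both treatments.

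The promoters of DAB2, SLC22A5 and EZR are shown because these members passed the test over time, and that of PDZK1 because it holds a match to the HNF4 core, the binding letters of a factor known to act on proximal tubule genes. RefSeq promoter windows on GRCh38.p14, from 250 bases before to 50 bases after each annotated start, were at hand for 31 of the 36 genes and were searched on both strands for CAAAGTCCA. The 250 bases before a start of DAB2, chr5:39424981-39425230 (minus strand), SLC22A5, chr5:132369460-132369709 (plus strand), EZR, chr6:158818236-158818485 (minus strand), and PDZK1, chr1:145707369-145707618 (minus strand), are printed 5′ to 3′ on the gene's strand, with the match in capitals.
DAB2: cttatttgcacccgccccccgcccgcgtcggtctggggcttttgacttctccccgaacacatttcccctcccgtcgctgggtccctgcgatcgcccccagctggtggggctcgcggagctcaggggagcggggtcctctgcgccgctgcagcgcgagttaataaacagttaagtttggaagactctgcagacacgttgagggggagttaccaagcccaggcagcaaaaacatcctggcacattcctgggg
SLC22A5: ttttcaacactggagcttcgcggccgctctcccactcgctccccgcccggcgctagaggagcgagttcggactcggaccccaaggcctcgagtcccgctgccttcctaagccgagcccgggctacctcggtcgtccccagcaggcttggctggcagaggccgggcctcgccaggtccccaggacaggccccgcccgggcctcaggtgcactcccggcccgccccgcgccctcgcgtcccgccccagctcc
EZR: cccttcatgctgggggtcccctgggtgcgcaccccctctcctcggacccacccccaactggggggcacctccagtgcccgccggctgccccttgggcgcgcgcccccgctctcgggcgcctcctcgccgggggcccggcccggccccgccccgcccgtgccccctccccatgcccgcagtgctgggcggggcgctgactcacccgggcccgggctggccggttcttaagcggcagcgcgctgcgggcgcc
PDZK1: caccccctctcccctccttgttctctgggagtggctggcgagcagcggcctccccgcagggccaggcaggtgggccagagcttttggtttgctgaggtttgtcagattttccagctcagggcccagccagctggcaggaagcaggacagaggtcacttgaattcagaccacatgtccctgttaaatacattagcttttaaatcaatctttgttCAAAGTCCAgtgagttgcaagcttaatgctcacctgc

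The HNF4 core lay in 2 of 50 member windows (4%), both of PDZK1 and covering the same site, beside 0.384% of all 35116 promoter windows. In the window shown it begins 37 bases before the start. It was in none of the 21 windows of members not detected, which says nothing of these members at so low a share over all windows. DAB2, SLC22A5 and EZR did not hold these letters in the windows shown. Such a match describes the sequence and does not show that a factor binds there.

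Fk against control vehicle was the comparison the study was built for, and no member passed the test in it. At 12 h limma with Benjamini-Hochberg adjustment called 0 of 10 tested members at an adjusted p of 0.05, and 0% of the 10784 genes tested. At 48 h it again called 0 members, against a background of 0%. At an unadjusted p of 0.05, 724 genes (6.71%) passed at 12 h and 559 (5.18%) at 48 h, and none of them was a member. The median log2 difference of the 10 members was -0.02 at 12 h and -0.10 at 48 h, beside 0.01 and 0.02 over all genes tested. Members differed by a median size of 0.15 at 12 h and 0.13 at 48 h, beside 0.16 and 0.13 over all genes.

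**Figure D2:**
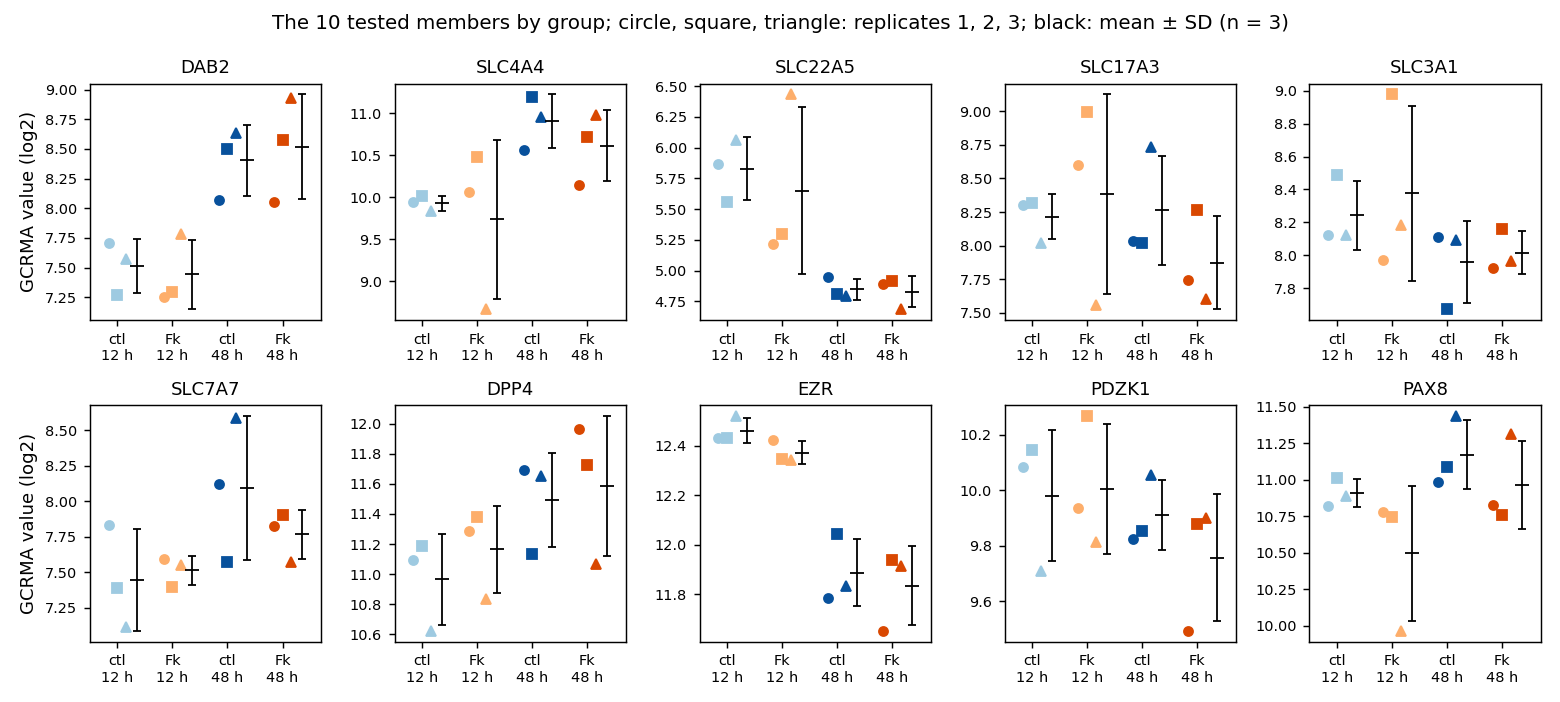
Log2 values after GCRMA of the 10 tested members, one panel per gene with its own scale, by group; circles, squares and triangles are replicates 1, 2 and 3, and black bars give the mean ± SD of 3 arrays. EZR and SLC22A5 sit lower, and DAB2 higher, at 48 h than at 12 h in both treatments, and at 12 h the Fk arrays of EZR and PAX8 lie below the control arrays.

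DAB2, the clathrin adaptor that links megalin and cubilin to endocytosis, was the only detected gene of its role. In controls it was at 7.70, 7.27 and 7.57 at 12 h and at 8.07, 8.50 and 8.64 at 48 h. With Fk it was at 7.25, 7.29 and 7.78 at 12 h and at 8.05, 8.58 and 8.93 at 48 h. Every array at 48 h was thus above every array at 12 h, in both treatments, while Fk and control arrays overlapped at each time. DAB2 rose by 0.89 ± 0.25 (SE, n = 3 a group) in controls (limma adjusted p = 0.0291) and by 1.08 ± 0.25 with Fk (limma adjusted p = 0.0130). The Fk difference was -0.07 (95% interval -0.62 to 0.47) at 12 h and 0.12 (-0.43 to 0.66) at 48 h. All 4 DAB2 probe sets that reached 4 on the arrays were higher at 48 h, by 0.47 to 1.12 in controls and by 1.06 to 1.40 with Fk. They differed more for Fk at 12 h, with -0.07 for the probe set used and -0.49, 0.02 and -0.53 for the others. At 48 h the Fk differences of these probe sets ran from -0.0013 to 0.29.

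SLC4A4, the sodium bicarbonate cotransporter that carries bicarbonate across the basolateral membrane, was the only detected gene among the phosphate, bicarbonate and proton transporters. It was at 9.94, 10.02 and 9.84 in controls at 12 h and at 10.57, 11.20 and 10.96 at 48 h, without overlap. With the compound it was at 10.06, 10.48 and 8.67 at 12 h and at 10.15, 10.72 and 10.98 at 48 h, where the arrays overlapped and replicate 3 at 12 h was the lowest of all 12. The time difference of 0.98 ± 0.40 (SE) in controls did not pass (limma adjusted p = 0.105). It did pass without Fk replicate 3 at 12 h (limma adjusted p = 0.0123), since the fit pools the spread of all groups. It also passed with only the groups compared in the fit (limma adjusted p = 0.0123) and with array weights (1.10, limma adjusted p = 0.00214). With Fk the time difference was 0.88 ± 0.40 (limma adjusted p = 0.136). Without Fk replicate 3 at 12 h it was 0.34 ± 0.26 (limma adjusted p = 0.349). Each of the 5 SLC4A4 probe sets was higher at 48 h in both treatments. The Fk difference at 12 h was -0.19 (95% interval -1.08 to 0.69), and without that array it was 0.34 (-0.23 to 0.92). At 48 h it was -0.29 (-1.18 to 0.59).

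SLC22A5, the sodium-dependent carnitine transporter OCTN2, was the member nearest to the level of detection among those tested. In controls it was at 5.87, 5.56 and 6.06 at 12 h and at 4.95, 4.81 and 4.79 at 48 h, and it fell by 0.98 ± 0.28 (SE; limma adjusted p = 0.0314). With Fk it was at 5.22, 5.30 and 6.43 at 12 h and at 4.89, 4.92 and 4.69 at 48 h, a difference of -0.82 ± 0.28 that did not pass (limma adjusted p = 0.0562). Without Fk replicate 3 at 12 h this difference was -0.43 ± 0.15 (limma adjusted p = 0.0625). All arrays at 12 h were above all arrays at 48 h in both treatments. At 12 h, Fk replicates 1 and 2 were below every control array, while replicate 3 was above them all. The Fk difference at 12 h was -0.18 (95% interval -0.79 to 0.44). Without replicate 3 it was -0.57 (-0.91 to -0.23), the smallest p of the members in that fit, and did not pass (limma adjusted p = 0.454). The Fk difference at 48 h minus that at 12 h was 0.16 with all arrays and 0.55 (0.10 to 1.00) without that array, and the mean of both was -0.10 and -0.29 (-0.52 to -0.07), none of them past the threshold.

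SLC17A3, a urate and organic anion transporter, was at 8.30, 8.32 and 8.02 in controls at 12 h and at 8.03, 8.02 and 8.73 at 48 h. In Fk cultures the values were 8.60, 8.99 and 7.56 at 12 h and 7.75, 8.26 and 7.60 at 48 h. The Fk difference at 12 h was 0.17 (95% interval -0.59 to 0.93), and without Fk replicate 3 it was 0.58 (-0.0071 to 1.17). At 48 h it was -0.39 (-1.15 to 0.37). The time difference of SLC17A3 was 0.05 ± 0.34 (SE) in controls and -0.51 ± 0.34 with Fk, and it was the only member with opposite signs in the 2 treatments. The difference between these time courses was -0.56 (95% interval -1.64 to 0.51; limma adjusted p = 0.996). Without Fk replicate 3 at 12 h, the other two of that group were higher than every Fk array at 48 h, and in Fk cultures SLC17A3 fell by 0.93 ± 0.26 (SE; limma adjusted p = 0.0309). The difference between time courses was then -0.97 (-1.76 to -0.18; limma adjusted p = 1).

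The amino acid transporters SLC3A1 and SLC7A7 did not pass in any comparison. SLC3A1, the heavy chain of the cystine transporter, was at 8.12, 8.49 and 8.12 in controls at 12 h and at 8.11, 7.67 and 8.09 at 48 h. With Fk it was at 7.97, 8.98 and 8.18 at 12 h and at 7.92, 8.16 and 7.97 at 48 h. Its control arrays did not overlap between the times, yet the nearest differed by little beside a mean difference of -0.28 ± 0.24 (SE). SLC7A7, the light chain of a basolateral exporter of cationic amino acids, was at 7.83, 7.39 and 7.12 in controls at 12 h and at 8.12, 7.57 and 8.59 at 48 h. The Fk arrays read 7.59, 7.40 and 7.55 at 12 h and 7.83, 7.90 and 7.57 at 48 h. Its groups overlapped in every comparison, with a time difference of 0.65 ± 0.25 in controls (limma adjusted p = 0.0885) that passed when control replicate 2 at 48 h was left out (0.91, adjusted p = 0.0360).

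DPP4, a brush border dipeptidyl peptidase, was the only enzyme of its group above the level of 4 on all arrays. It was at 11.09, 11.19 and 10.62 in controls at 12 h and at 11.70, 11.13 and 11.65 at 48 h. In the Fk groups it lay at 11.28, 11.38 and 10.84 at 12 h and at 11.96, 11.73 and 11.07 at 48 h, so that all groups overlapped. The Fk difference was 0.20 (95% interval -0.39 to 0.78) at 12 h and 0.09 (-0.49 to 0.68) at 48 h. The time differences of 0.53 ± 0.26 (SE) in controls and 0.42 ± 0.26 with Fk did not pass (limma adjusted p = 0.177 and 0.272). All 3 DPP4 probe sets were higher at 48 h in both treatments.

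EZR (ezrin), which ties the microvillar membrane to actin, had the smallest spread of the tested members and the smallest adjusted p over time. In controls it was at 12.43, 12.43 and 12.52 at 12 h and at 11.79, 12.04 and 11.84 at 48 h. Fk cultures were at 12.42, 12.35 and 12.34 at 12 h and at 11.65, 11.94 and 11.92 at 48 h. All arrays at 48 h were lower than all at 12 h, and EZR fell by 0.57 ± 0.12 (SE) in controls (limma adjusted p = 0.00821) and fell by 0.54 ± 0.12 with Fk (limma adjusted p = 0.0103). At 12 h the 3 Fk arrays were also below the 3 control arrays, by -0.09 (95% interval -0.35 to 0.17; limma adjusted p = 0.896), and at 48 h the difference was -0.05 (-0.31 to 0.20). The 4 bright EZR probe sets had time differences of -0.73 to -0.57 in controls and -0.63 to -0.52 with Fk. The remaining probe set, whose mean was 5.01, differed by -0.08 and -0.02.

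PDZK1, the scaffold protein that holds transporters in the brush border, passed in no comparison. It was at 10.08, 10.15 and 9.71 in controls at 12 h, at 9.83, 9.85 and 10.05 in controls at 48 h, at 9.94, 10.27 and 9.81 with Fk at 12 h and at 9.49, 9.88 and 9.90 with Fk at 48 h. All of these groups overlapped. The Fk difference was 0.02 (95% interval -0.36 to 0.41) at 12 h and -0.15 (-0.54 to 0.23) at 48 h, and the time differences were -0.07 ± 0.17 (SE) in controls and -0.25 ± 0.17 with Fk.

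PAX8, a transcription factor of renal epithelium, had the smallest p of the members in the Fk comparison at 12 h. It was at 10.82, 11.01 and 10.89 in controls and at 10.78, 10.75 and 9.96 with Fk at 12 h, where no Fk array reached the lowest control. The difference of -0.41 ± 0.23 (SE; 95% interval -0.93 to 0.11) did not pass (limma adjusted p = 0.782). Fk replicate 3 was the lowest of all 12 arrays, and without it the difference was -0.14 (-0.56 to 0.27). At 48 h PAX8 was at 10.99, 11.09 and 11.44 in controls and at 10.83, 10.76 and 11.31 with Fk, with overlap and a difference of -0.21 ± 0.23. The mean of both Fk differences was -0.31 ± 0.16 (limma adjusted p = 0.697). Each of its 8 probe sets that reached 4 was lower with Fk at 12 h, with differences of -0.53 to -0.31, and 6 of the 8 were lower at 48 h.

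**Figure D3:**
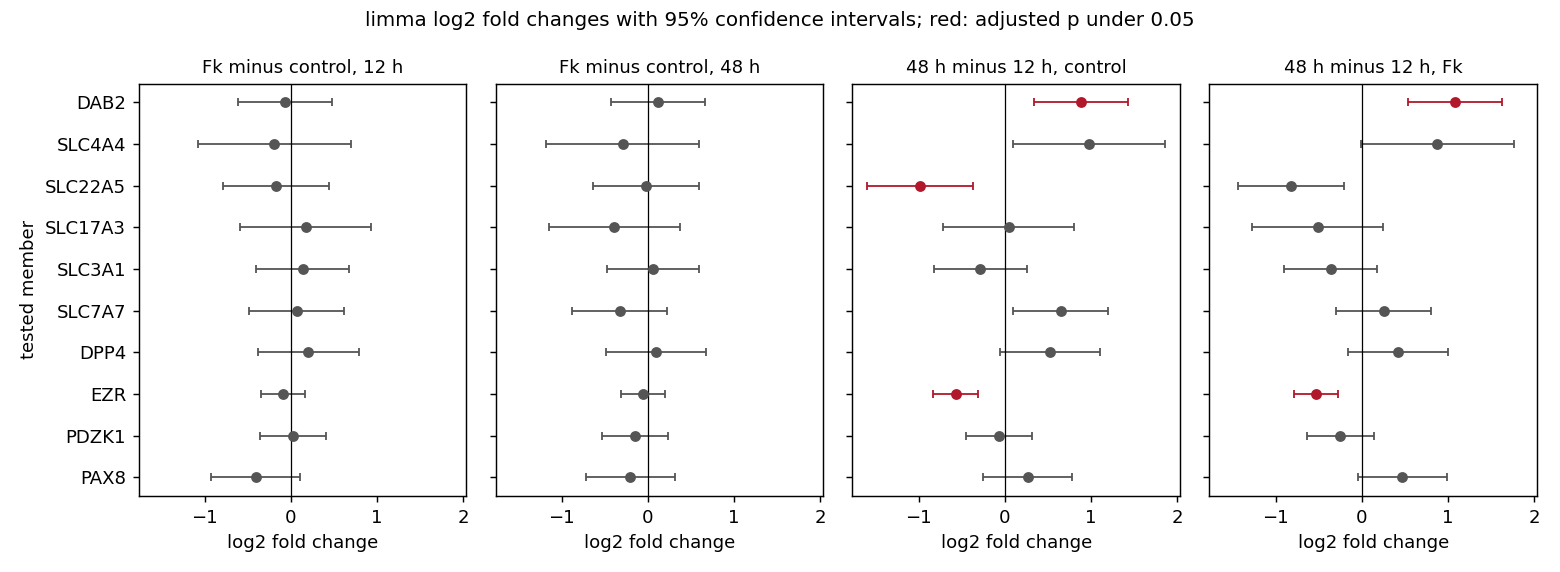
Log2 differences fitted by limma for the 10 tested members with 95% confidence intervals, in 4 panels for Fk minus control at 12 h and 48 h and for 48 h minus 12 h in control and Fk cultures. Red marks an adjusted p under 0.05: none of 10 in the Fk panels, DAB2, SLC22A5 and EZR in the control time course, and DAB2 and EZR in that with Fk.

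Over the 10 tested members, groups without overlap were near the background in the Fk comparison at 12 h and below it at 48 h. At 12 h they were 2 members, EZR and PAX8, beside 1769 genes (16.4%), and at 48 h they were 0 members beside 1096 genes (10.2%). The Fk difference at 48 h minus that at 12 h was called for 0 members and for 0% of genes, with 357 genes (3.31%) and 0 members at an unadjusted p of 0.05. The mean of both Fk differences was called for 0 members and for 1 gene (0.00927%), ZBED2, which is no member; 856 genes (7.94%) and 0 members passed an unadjusted p of 0.05. Without Fk replicate 3 at 12 h, the members at an unadjusted p of 0.05 were 1 for Fk at 12 h (SLC22A5; 7.87% of genes), 2 for the difference of the Fk effects (SLC22A5 and SLC17A3; 4.4%) and 1 for their mean (SLC22A5; 11.5%), none of them past the adjusted threshold. By role, the 5 tested transporters had Fk differences of -0.19 to 0.17 at 12 h and -0.39 to 0.06 at 48 h. Intervals at 12 h ran from -0.35 to 0.17 for EZR, the narrowest, to -1.08 to 0.69 for SLC4A4, the widest, so that differences within these bounds could not be told from 0.

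Members passed the test only between the times in culture, at shares near those of all genes tested. In controls, 3 of 10 members passed between 12 h and 48 h, with DAB2 higher and SLC22A5 and EZR lower, beside 2314 of all genes (21.5%; 10.6% higher and 10.9% lower). With Fk, DAB2 was higher and EZR lower, 2 of 10 members beside 2500 genes (23.2%; 11.5% higher and 11.7% lower). These counts are near the background of the array. Groups did not overlap for 5 members in controls (DAB2, SLC4A4, SLC22A5, SLC3A1 and EZR), beside 5388 genes (50%), and for 3 with Fk (DAB2, SLC22A5 and EZR), beside 4178 genes (38.7%). Both time courses use separate arrays, and 9 of 10 members had the same sign in them, beside 8731 of all 10784 genes tested (81%). Control and Fk arrays at 48 h deviated together for replicates 1 and 3 (correlations of 0.80 and 0.61), so the courses may not be independent. In a culture, fewer cells that express a gene and less of its RNA per cell cannot be told apart in these data.

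The calls in controls rest on few arrays. DAB2 no longer passed in controls when control replicate 1 (limma adjusted p = 0.0525), 2 (0.102) or 3 (0.0747) at 12 h, or control replicate 2 (0.0913) or 3 (0.0692) at 48 h, was left out. SLC22A5 did not pass in controls without any of replicates 1, 2 and 3 at 12 h (limma adjusted p = 0.0855, 0.0509 and 0.110) or at 48 h (0.0757, 0.0900 and 0.0602). Its time difference with Fk passed without Fk replicate 1 (limma adjusted p = 0.0384) or 2 (0.0497) at 12 h, but not without replicate 3 (0.0625). It also passed with array weights (-0.39, limma adjusted p = 0.0376) and with arrays centred on their median (-0.86, limma adjusted p = 0.0462). EZR in both treatments and DAB2 with Fk passed whichever single array was left out. Without Fk replicate 3 at 12 h, 4 members passed in controls (SLC4A4 in addition) and 3 with Fk (SLC17A3 in addition). More genes passed in that fit too, 3438 of all 10784 tested in controls and 2787 with Fk. With probe sets marked _x_ or _s_, whose probes can match several transcripts, left out, EZR was read from its dim probe set and did not pass in either treatment (limma adjusted p = 0.622 and 0.889), and DAB2 did not pass in controls (0.47, adjusted p = 0.161).

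**Figure D4:**
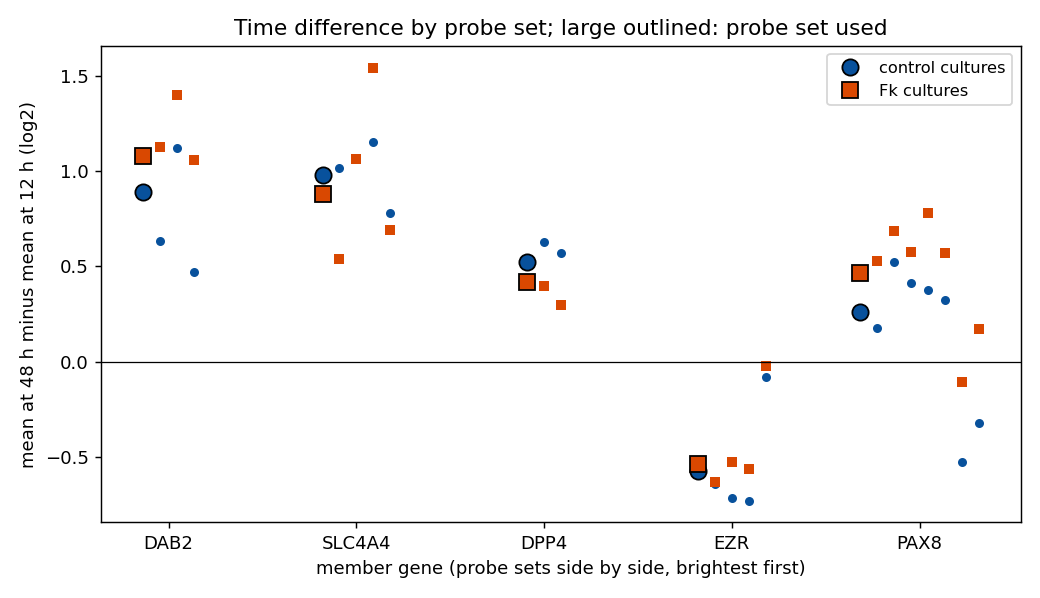
Mean at 48 h minus mean at 12 h (log2) for each probe set at 4 or more on at least 3 arrays of 5 members that have several; circles are control and squares Fk cultures, the probe set used is large and outlined, and probe sets run from bright to dim. All DAB2, SLC4A4 and DPP4 probe sets lie above 0 and all EZR probe sets below 0, while PAX8 has 6 of 8 above 0 in controls and 7 of 8 with Fk.

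Other genes of the proximal tubule were read in 4 lists, and markers of other segments, other cell types and injured tubule in 3 more. Limma called 0 genes for Fk at either time in each of the 7 lists. At an unadjusted p of 0.05, 4 of 18 further transporters, 1 of 21 metabolism genes, 3 of 20 brush border and endocytosis genes and 2 of 17 transcription factors passed for Fk at 12 h, beside 6.71% of all genes. At 48 h these counts were 2 of 18, 5 of 21, 2 of 20 and 1 of 17, beside 5.18% of all genes. In the 3 marker lists they were 0 of 11, 1 of 8 and 3 of 20 at 12 h and 1 of 11, 0 of 8 and 2 of 20 at 48 h. These lists were chosen with earlier results in view. Their counts over time with all arrays are read against the background of 21.5% in controls and 23.2% with Fk. For counts without Fk replicate 3 at 12 h, the background was 3438 genes in controls and 2787 with Fk, of 10784 tested. Of 20 tested genes of the brush border and endocytosis, 5 rose and 2 fell over time in each treatment; without Fk replicate 3 at 12 h, 7 rose and 2 fell in controls and 6 rose and 2 fell with Fk. ENPEP, the brush border aminopeptidase A, rose by 1.20 ± 0.15 (SE) in controls and by 1.39 ± 0.15 with Fk (limma adjusted p = 0.00138 and 0.000656). The lysosomal enzyme NAGLU rose by 1.12 ± 0.22 and 1.15 ± 0.22 (limma adjusted p = 0.00774 and 0.00665). The minus-end motor of endocytic vesicles MYO6 rose by 1.28 ± 0.26 and 1.05 ± 0.26 (limma adjusted p = 0.00830 and 0.0178). NHERF1, which links ezrin to membrane proteins, fell, with differences of -0.41 ± 0.12 in controls and -0.96 ± 0.12 with Fk (limma adjusted p = 0.0331 and 0.000888). The endocytic recycling protein EHD1 fell, with differences of -1.18 ± 0.17 and -0.59 ± 0.17 (limma adjusted p = 0.00231 and 0.0337). The ezrin relatives RDX and MSN differed by -0.12 ± 0.13 and 0.17 ± 0.15 in controls and by 0.04 ± 0.13 and -0.05 ± 0.15 with Fk, and did not pass.

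Of 45 further transporters and sodium pump genes, 18 were tested. Over time 2 rose and 2 fell in controls, and 1 rose and 2 fell with Fk. In controls the sodium pump regulator FXYD2 rose by 1.12 ± 0.15 (SE, limma adjusted p = 0.00154) and the neutral amino acid transporter SLC1A4 by 1.15 ± 0.27 (limma adjusted p = 0.0147). With Fk these 2 genes differed over time by 0.31 ± 0.15 and 0.35 ± 0.27 and did not pass (limma adjusted p = 0.154 and 0.363). SLC1A4 had group means of 8.25 and 9.39 in controls at 12 h and 48 h, and of 9.33 and 9.69 with Fk. Its Fk difference at 12 h was 1.09 ± 0.27 and did not pass (limma adjusted p = 0.575). Group means of FXYD2 were 11.20 and 12.32 in controls, and 11.49 and 11.80 with Fk. The amino acid transporter SLC43A2 fell, with differences of -0.70 ± 0.11 in controls and -0.93 ± 0.11 with Fk (limma adjusted p = 0.00335 and 0.000888). The drug efflux pump ABCB1 fell, with differences of -0.57 ± 0.15 and -0.50 ± 0.15 (limma adjusted p = 0.0254 and 0.0388). CLCN5, an endosomal chloride-proton exchanger, rose with Fk by 2.42 ± 0.57 (adjusted p = 0.0151), where its 3 arrays at 12 h had an SD of 1.53 around 4.93. Without Fk replicate 3 at 12 h, the counts were 5 higher and 2 lower in controls and 1 higher and 4 lower with Fk.

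Of 21 tested genes of proximal tubule metabolism, 6 rose and 2 fell in controls, and 6 rose and 4 fell with Fk (5 and 3 without Fk replicate 3 at 12 h). ARG2, the mitochondrial arginase, rose from 9.16 ± 0.22 (SD, n = 3) to 12.53 ± 1.06 in controls and from 9.69 ± 0.55 to 12.75 ± 0.80 with Fk (limma adjusted p = 0.00280 and 0.00387). MIOX, the first enzyme of inositol breakdown, rose by 1.54 ± 0.24 (SE) and 1.72 ± 0.24 (limma adjusted p = 0.00280 and 0.00157). GPX3, a secreted glutathione peroxidase made by the proximal tubule, rose in controls by 0.93 ± 0.13 (limma adjusted p = 0.00187). With Fk it differed by 0.08 ± 0.13 over time (limma adjusted p = 0.689), and its Fk difference at 48 h was -0.63 ± 0.13 (limma adjusted p = 0.382). PCK2, a mitochondrial enzyme of phosphoenolpyruvate synthesis, rose by 2.02 ± 0.38 in controls and 1.81 ± 0.38 with Fk (limma adjusted p = 0.00617 and 0.00918). CA2, the cytosolic carbonic anhydrase that supplies bicarbonate for SLC4A4, fell, with differences of -0.69 ± 0.20 in controls and -1.01 ± 0.20 with Fk (limma adjusted p = 0.0318 and 0.00658).

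Of 17 tested renal transcription factors, 1 rose and 2 fell in controls, and 2 rose with Fk. Without Fk replicate 3 at 12 h, 3 rose and 3 fell in controls, and 2 rose and 2 fell with Fk. CEBPB, a bZIP factor, rose by 1.58 ± 0.34 (SE) in controls and by 2.06 ± 0.34 with Fk (limma adjusted p = 0.0102 and 0.00311). SOX9, a factor of tubule progenitors and repair, fell in controls from 9.35 ± 0.22 (SD) to 5.51 ± 0.22 (limma adjusted p = 0.0184), while its Fk arrays at 12 h had an SD of 2.41. SALL1, a factor of kidney development, fell by 1.52 ± 0.46 in controls (limma adjusted p = 0.0385). MAF, a bZIP factor, rose with Fk by 1.46 ± 0.37 (limma adjusted p = 0.0196). The difference of these changes between treatments passed for no gene.

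Markers of other nephron segments and of injured tubule were set beside these time differences. The mean log2 level over 27 thick limb, distal and collecting duct markers was 4.57 to 4.66 in controls at 12 h and 4.69 to 4.81 at 48 h, and 4.54 to 4.62 and 4.71 to 4.78 with Fk. Of 11 tested, 1 passed in each treatment: EPCAM rose in controls and ATP6V0D2 with Fk. ATP6V0D2 had group means of 2.58 and 2.97 in controls at 12 h and 48 h, and of 2.63 and 4.99 with Fk. It met the filter for a test only through the Fk group at 48 h, in which it was higher. Of the 27 markers, 11 were detected. Group means lay at 8.69 to 10.36 for CLDN16, 7.45 to 7.62 for CLDN19 and 7.66 to 7.81 for SCNN1A, while SLC12A1, SLC12A3 and CALB1 were not detected. Over 23 markers of injured or dedifferentiated tubule, the mean level was 10.41 to 10.48 at 12 h and 9.99 to 10.29 at 48 h in controls, with 3 of 20 higher and 5 lower. With Fk it was 9.95 to 10.54 at 12 h and 10.03 to 10.39 at 48 h, with 1 higher and 2 lower; without replicate 3 at 12 h the counts were 3 and 6 in controls and 0 and 1 with Fk. In controls the adhesion molecule VCAM1 fell by 1.69 ± 0.38 (SE, limma adjusted p = 0.0129), beside a difference of 0.12 ± 0.38 with Fk (limma adjusted p = 0.840). VCAM1 had group means of 6.63 and 4.94 in controls at 12 h and 48 h, and of 5.55 and 5.68 with Fk. Its Fk difference was -1.07 ± 0.38 at 12 h (limma adjusted p = 0.673) and 0.74 ± 0.38 at 48 h, and passed at neither time. The keratin KRT8 also fell in controls, by a difference of -0.59 ± 0.15 (limma adjusted p = 0.0227). There the secreted proteins IGFBP7 and CLU rose by 0.54 ± 0.14 and 0.58 ± 0.15 (limma adjusted p = 0.0210 and 0.0233). With Fk the annexin ANXA1 rose by 0.90 ± 0.26, and KRT8 and the cadherin CDH2 fell, with differences of -0.56 ± 0.15 and -0.67 ± 0.21 (limma adjusted p = 0.0326, 0.0258 and 0.0433). Over 26 glomerular, endothelial, fibroblast and immune markers the mean level was 4.08 to 4.31 in all groups, and 8 of them were detected. NPHS1, VWF and PTPRC were not detected, while the matrix proteoglycan DCN was at 8.04 to 10.07. Group means of other detected markers lay at 12.96 to 13.13 for PTPRO, 6.40 to 6.67 for PODXL and 6.24 to 6.71 for SYNPO. They lay at 8.93 to 9.82 for LUM and 6.71 to 7.14 for ACTA2. Of 8 tested, none passed in controls and the collagen COL1A1 fell by 0.87 ± 0.19 (SE; limma adjusted p = 0.0104) with Fk, where without replicate 3 at 12 h the count was 2. The part of these markers in the time differences of the members was not tested.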

How the data were processed

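RNA of 12 HK-2 cultures in 4 groups of 3 was measured on Affymetrix arrays. The authors deposited 1 value for each probe set and array, made with GCRMA according to the submitters' processing notes; the range of the deposited values places them on a log2 scale. The GCRMA version, and whether other arrays were normalized with these, are not stated. Of 54675 probe sets, 41097 name 1 gene, 1801 several and 11777 none; those naming 1 gene were used, and the platform's gene symbols were matched to RefSeq by Entrez ID for 41043. Arrays give no read depth, and their number limits the precision. The members and lists were chosen with earlier results of these data known.

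Tests were run in limma 3.58.1 (R 4.3.3), fitting 4 group means to the 12 arrays together, eBayes moderation (8 residual and 2.44 prior degrees of freedom) and Benjamini-Hochberg adjustment over 10784 genes, two-sided, at 0.05. The fit was tested on simulated data. Values on every array are given for members past the threshold and for the 3 with the smallest p in each direction of a comparison, and up to 4 called genes with the smallest adjusted p were eligible to be named from each list. RDX, MSN, SLC12A1, SLC12A3, CALB1, CLDN16, CLDN19, SCNN1A, NPHS1, VWF, PTPRC, PTPRO, PODXL, SYNPO, LUM, ACTA2 and DCN were named outside that rule, after their values were seen. Alternatives changed the filter, the probe set, the centring, the moderation, array weights, a replicate block, the threshold and the arrays used, with 12 leaving out 1 array. Figures used matplotlib 3.10.9. A further promoter motif search is not reported here.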

Additional observations from a re-analysis of the deposited data

How the results depend on the processing

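In all, 26 settings were tried beside the reported one, 12 of which left out 1 array. No member was called under the 25 that apply to the Fk comparisons at 12 h and 48 h, nor under the 24 that apply to the difference and the mean of the Fk effects. Changes of sign among the Fk differences concern values inside their intervals, and the causes were not tested except where stated. With 3 arrays a group, the spread of the cultures limits what can be told from 0.

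With all probe sets of a gene averaged, the Fk difference at 48 h was -0.0408 for SLC3A1 and 0.0245 for EZR, 4 genes were called at 48 h and 2 for the mean of both times. With array weights, which gave Fk_12h replicate 3 a weight of 0.121, the Fk difference was 0.27 for SLC4A4 and -0.0021 for SLC7A7 at 12 h, and 0.0557 for SLC22A5, 0.0226 for SLC17A3 and 0.0309 for SLC7A7 at 48 h, and the control time difference of SLC17A3 was -0.10. That fit called 156 genes for Fk at 12 h, 94 at 48 h, 527 for the mean, 4920 and 5345 over time in control and Fk cultures, and 4 members over time with Fk. With no filter on low values, 1 gene was called for Fk at 48 h, 0 for the mean, and 1 member over time in controls. The mean called 0 genes with the filter at 4 on all 12 arrays and with robust moderation. Without probe sets marked as shared, 1 member was called over time in each treatment. At an adjusted p of 0.1, 4 genes were called for Fk at 48 h. With only the groups compared in the fit, 1 gene was called for Fk at 48 h, and 831 genes and 0 members over time with Fk.

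Same-numbered arrays did not deviate together in every pair (correlations of 0.04, 0.26 and 0.16 at 12 h and 0.80, -0.03 and 0.61 at 48 h), and the reported fit takes no pairs. At 48 h those of replicates 1 and 3 did deviate together, and the labels do not say whether same-numbered cultures were paired. With a replicate block within time, 1 gene was called for Fk at 12 h, 0 at 48 h and 0 for the mean, with 0 members in each. A block over all groups called 3 members and 2589 genes over time in controls and 2 members and 2778 genes with Fk.

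Leaving out 1 array gave 0 to 3 genes for Fk at 12 h, 0 to 1 at 48 h and 0 to 2 for the mean, 1060 to 3438 genes and 1 to 4 members over time in controls, and 1297 to 2787 genes and 2 to 3 members with Fk. Fk differences at 12 h ranged from -0.24 to 0.0232 for DAB2, -0.57 to 0.34 for SLC4A4, -0.57 to 0.0385 for SLC22A5, -0.14 to 0.58 for SLC17A3, -0.17 to 0.34 for SLC3A1, -0.10 to 0.26 for SLC7A7 and -0.11 to 0.12 for PDZK1. At 48 h they ranged from -0.0888 to 0.35 for DAB2, -0.0621 to 0.0534 for SLC22A5, -0.0844 to 0.14 for SLC3A1, -0.0947 to 0.35 for DPP4 and -0.10 to 0.0385 for EZR. Control time differences ranged from -0.19 to 0.17 for SLC17A3 and -0.20 to 0.0139 for PDZK1.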
